A study of Homo sapiens with 16 samples.

Results

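Metallothioneins are small cysteine-rich proteins that bind zinc and copper, and the members read here are MT2A, MT1E, MT1F, MT1G, MT1H, MT1M and MT1X. They were taken by name from the platform annotation, as all probe sets that carry exactly 1 gene symbol equal to one of these, and 7 genes with 11 probe sets were found among 11963 genes and 22215 probe sets. The series holds 16 Affymetrix U133 2.0 arrays of total RNA from 4 lines labelled as breast, 2 for each of 8 groups. The invasive lines are MDA-MB-231 and LM24175, which was derived from it through lung metastases, and they had been stably infected with a construct for constitutive RECK expression or with an empty vector (EV), whose promoter is not named. The poorly invasive lines are Hs343T and Hs606T, which had been transfected with an siRNA against RECK (siRECK) or a scrambled one (siSCR), at a dose and time that the labels do not give. RECK is a membrane-anchored inhibitor of matrix metalloproteinases, and the series asked how its level bears on expression in both kinds of line. Whether both arrays of a group were grown as separate cultures is not stated. A p-value rests on the spread between arrays of the same group, pooled over all 8 groups and moderated over all probe sets. That spread may be technical, and the number of arrays limits every value's precision.

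Transcription of metallothionein genes is driven mainly by MTF1, a zinc-sensing factor that binds metal response elements close to their start sites, and glucocorticoids, oxidative stress and inflammatory cytokines also raise it. The proteins buffer free zinc and copper, and MT2A is the most widely expressed isoform in many human tissues. SLC30A1, the zinc exporter of the cell surface, is another target of MTF1. In RefSeq's annotation of GRCh38.p14 all 7 members lie in 1 cluster on chromosome 16. The order there is MT4, MT3, MT2A, the transcribed pseudogene MT1L, MT1E, MT1M, MT1A, MT1B, MT1F, MT1G, MT1H and MT1X, with 4 further pseudogenes between them.

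The sequences before the start sites show the motif that links the members to zinc, and 3 of the 7 were found in the RefSeq promoter table. They are printed 5′ to 3′ on the + strand of GRCh38.p14 and cover 250 bases each, MT2A at chr16:56608334-56608583, MT1H at chr16:56669564-56669813 and MT1X at chr16:56682220-56682469. Capitals mark matches on either strand to TGCACNC or TGCGCNC, the core of the metal response element, where N is any base.
MT2A: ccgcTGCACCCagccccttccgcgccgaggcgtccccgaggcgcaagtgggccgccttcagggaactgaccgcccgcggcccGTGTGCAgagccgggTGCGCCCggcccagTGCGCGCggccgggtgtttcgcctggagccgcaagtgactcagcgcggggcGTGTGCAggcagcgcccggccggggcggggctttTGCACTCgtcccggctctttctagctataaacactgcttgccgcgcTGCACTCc
MT1H: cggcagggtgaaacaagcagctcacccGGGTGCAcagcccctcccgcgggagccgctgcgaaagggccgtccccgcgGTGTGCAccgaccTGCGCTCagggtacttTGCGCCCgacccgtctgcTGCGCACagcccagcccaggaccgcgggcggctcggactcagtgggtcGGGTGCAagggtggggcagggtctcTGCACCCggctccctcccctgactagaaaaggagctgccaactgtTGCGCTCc
MT1X: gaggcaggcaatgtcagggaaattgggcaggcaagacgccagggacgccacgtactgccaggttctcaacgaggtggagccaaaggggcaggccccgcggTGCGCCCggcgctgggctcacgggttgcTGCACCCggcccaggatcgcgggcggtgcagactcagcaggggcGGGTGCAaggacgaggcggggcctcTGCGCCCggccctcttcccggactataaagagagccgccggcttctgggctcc
MT1H held 8 such matches, MT2A 7 and MT1X 4. Of 35116 windows of this length in the table, 24.8% held at least 1 match, 0.370% at least 4, 0.0313% at least 7 and 0.0171% at least 8, these members included. No match to TGCACNC overlapped one to TGCGCNC. The core of the interferon-stimulated response element, searched on both strands like the other motifs, was found in none of the 3 and in 3.02% of all windows. TTCNNNGAA, the form bound by STAT factors, was found in MT2A alone of the 3 and in 6.57% of all windows. These are matches of letters, not measured binding.

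**Figure D1:**
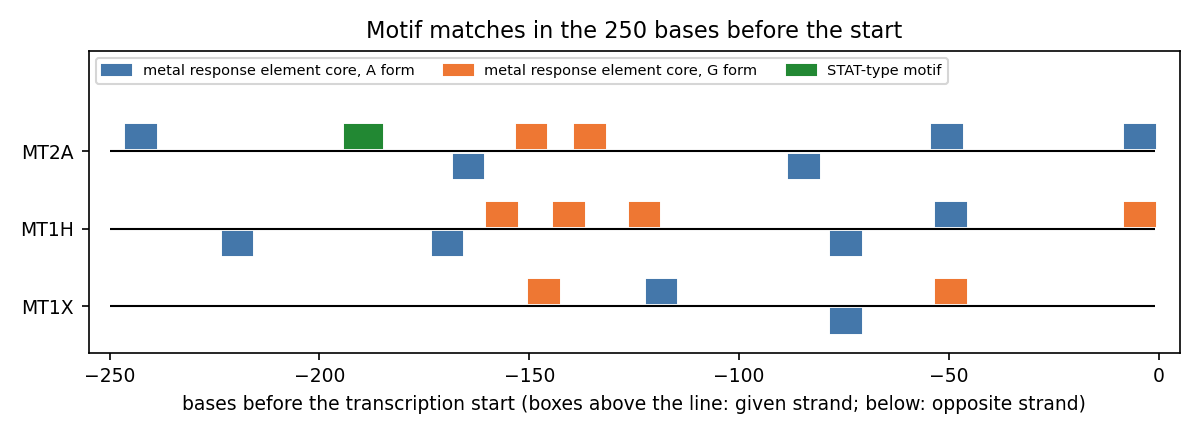
Motif matches in the 250 bases before the start of MT1H, MT1X and MT2A. The horizontal axis is the distance from the start in bases, boxes above a line are matches on the given strand, and boxes below it are matches on the opposite strand. MT1H carries 8 matches to the metal response element core and MT2A 7, spread over the whole window, while the 4 of MT1X lie in its nearer part.

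The probe sets differ in how well they can tell the members apart. Of the 11, 9 carry the suffix _x_at, by which the manufacturer marks probe sets that can also bind other transcripts, and for MT2A, MT1E, MT1F, MT1H and MT1X there was no other kind. Only MT1M (217546_at) and 1 of the probe sets of MT1G (210472_at) were free of that mark. Probe set 204326_x_at is annotated to MT1X, but the transcript it names is MT1L in the RefSeq gene table. A value of an _x_at probe set is therefore written below as that of the annotated gene with its probe set, and reads from its close relatives cannot be told apart from its own.

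Levels on these arrays are deposited log2 values, and a level is compared only within 1 probe set. MT2A (212185_x_at) lay close to the highest value of every array. Its values ran from 14.12 to 14.78, it stood above at least 99.7% of all probe sets on each array, and it was the brightest probe set of the array on 3 arrays, all of Hs343T. The gap between MT2A and the brightest probe set of an array was at most 0.50 log2 units. Whether a rise is compressed at that level was not tested. MT1X (208581_x_at) also stood above at least 99.2% of probe sets on every array, with 13.58 to 14.20. The MT1G probe set 210472_at was at the other end, with 3.35 to 3.85, and lay below the array's lower quartile on all 16 arrays.

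MT1M separated the lines. On the 8 arrays of MDA-MB-231 and LM24175 its lowest value was 3.49, the median 3.90 and the highest 4.32, and all 8 lay below the array's lower quartile. Across Hs343T and Hs606T the lowest was 8.35, the median 9.07 and the highest 11.40, from 3.73 to 6.76 log2 units above that quartile. The 2 pairs of lines did not overlap, and within the poorly invasive pair Hs343T was higher than Hs606T on every array. With EV, MT1M read 3.85 and 4.32 in MDA-MB-231 and 4.14 and 4.13 in LM24175. With siSCR it read 9.91 and 9.63 in Hs343T and 8.35 and 8.44 in Hs606T. The mean of the EV groups was 4.11 and that of the siSCR groups 9.08, a log2 difference of -4.97 (SE 0.10), or 31.3-fold lower in the invasive lines (limma, adjusted p = 6.69e-13). The low side lies below the lower quartile of the arrays, so the fold rests on values in the range of dim probe sets.

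**Figure D2:**
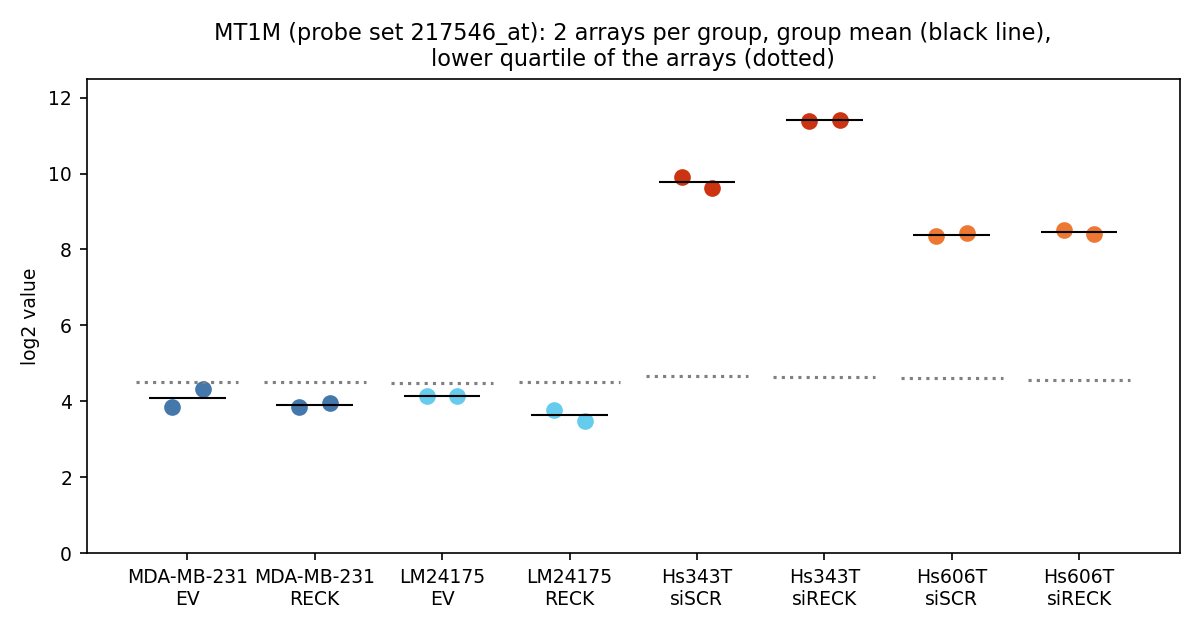
MT1M, probe set 217546_at, on each array. The vertical axis is the deposited log2 value, the points are the 2 arrays of a group, the black line is their mean, and the dotted line is the mean lower quartile of those arrays. The 8 arrays of MDA-MB-231 and LM24175 sit between 3.49 and 4.32, below the dotted line, and Hs343T labelled siRECK stands highest at 11.40.

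The other members also differed between the control arms of the invasive and poorly invasive lines, by much less. All 11 member probe sets passed an adjusted p under 0.05, 10 lower and 1 higher in the invasive lines, in a comparison where 68.4% of all probe sets passed, 31.5% as higher and 36.9% as lower. Their median difference was -0.46, against -0.08 over all probe sets. MT1G (204745_x_at) was lower by a log2 difference of -0.81 (SE 0.06) and MT1F by -0.80 (213629_x_at) and -0.66 (217165_x_at). MT1E was lower by -0.56 (216336_x_at) and -0.43 (212859_x_at), MT1H by -0.46 and MT2A by -0.29. The 2 probe sets annotated to MT1X took opposite signs, with -0.23 for 208581_x_at and 0.34 for 204326_x_at, the one that names MT1L. In the same comparison HMOX1 differed by -4.50 (limma adjusted p = 1.28e-12), SLC30A1 by -0.63 (5.22e-07) and MTF1 by -0.62 (7.36e-05). FKBP5 differed by 0.50 (adjusted p = 0.0162), and STAT3 by 0.01 (adjusted p = 0.931). Their part in the metallothionein values was not tested. Line of origin, invasiveness and the kind of control cannot be told apart in this comparison.

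The lines also differed in what kind of cell their markers name. Between the invasive and poorly invasive lines this went along with the difference in MT1M, but not within either pair of lines. All 15 fibroblast markers, among them COL1A1, COL1A2 and DCN, stood above the array median in each Hs343T and Hs606T group, with mean levels per array of 11.5 to 12.7, against 5.89 to 7.24 in the invasive lines. In the invasive groups 4 to 7 of the 15 stood above the array median. COL5A1, COL6A3, FN1 and VIM did so in each, COL1A1 in both LM24175 groups, and COL1A2 and FBLN1 in LM24175 with the construct. Of 11 epithelial markers measured, CDH1, ESRP1 and GRHL2 lay below the lower quartile in all 8 groups, while KRT18 and KRT19 stood above the array median in all 8. EPCAM stood above it in the invasive groups and not in the others, and the number above it was 6 to 7 in the invasive groups and 2 to 4 in the others. The 12 leukocyte markers averaged 4.60 to 5.01 per array, with PTPRC below the lower quartile in every group and ITGB2 above the median in MDA-MB-231 with the construct. The 8 endothelial markers averaged 4.60 to 4.94, with CDH5 below the lower quartile in every group and PECAM1 above the median in both LM24175 groups and in Hs343T siSCR. The part of this difference in cell type in the metallothionein levels was not tested. In such bulk RNA, fewer cells of a type and less RNA per cell cannot be told apart.

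Between the 2 invasive lines with EV, 6 of the 11 member probe sets were higher in LM24175 than in its parent and 0 were lower, where 16.3% of all probe sets passed, 7.64% as higher and 8.66% as lower. MT1F (213629_x_at) read 10.54 and 10.65 in LM24175 and 9.82 and 9.66 in MDA-MB-231, a log2 difference of 0.86 (SE 0.13, limma adjusted p = 8.5e-04) or 1.81-fold. The other 5 were MT1X 204326_x_at with 0.47, MT1F 217165_x_at with 0.45, MT1E 216336_x_at with 0.36, MT1G 204745_x_at with 0.35 and MT1X 208581_x_at with 0.24. MT2A differed by 0.23 and did not pass (adjusted p = 0.0623). MT1M differed by 0.05 (adjusted p = 0.874), both groups lying below the lower quartile. The count fell to 3 without MDA-MB-231 EV replicate 2 or without LM24175 EV replicate 1, and to 2 without LM24175 EV replicate 2. In the same comparison 5 of 15 fibroblast markers were higher in LM24175 and 0 lower, with COL1A1 at 3.21 and COL6A3 at 2.23, and 3 of 26 interferon-stimulated genes were higher and 9 lower. Their part was not tested.

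Between the poorly invasive lines with siSCR, 7 of the 11 were lower in Hs606T than in Hs343T and 0 were higher, where 31.5% of all probe sets passed, 16.3% as higher and 15.2% as lower. MT1M was lower by a log2 difference of -1.38 (SE 0.15, limma adjusted p = 1.85e-05), or 2.59-fold. MT1F (213629_x_at) read 10.53 and 10.55 in Hs606T and 11.43 and 11.37 in Hs343T, a difference of -0.86. MT1G 204745_x_at followed with -0.50, MT1F 217165_x_at with -0.44, MT1X 204326_x_at with -0.37, MT1H with -0.32 and MT1E 216336_x_at with -0.30. MT2A differed by -0.10 (adjusted p = 0.364). The count fell to 4 without Hs343T siSCR replicate 2 or Hs606T siSCR replicate 2, and MT1M stayed past the threshold in all 26 alternatives, with -1.52 to -1.24. In Hs606T, 7 of 15 fibroblast markers were higher and 0 lower, with FBLN1 at 2.62 and FAP at 2.36. Of 26 interferon-stimulated genes 20 were higher and 0 lower, and of 10 glucocorticoid response genes 5 and 0. Of 14 measured zinc transporters and MTF1, 2 were higher and 2 lower. Of 7 copper handling genes 0 were higher and 5 lower, and of 12 oxidative and metal stress genes 5 and 1. SLC30A1 was higher by 0.43 (limma adjusted p = 0.0011) and HMOX1 by 0.57 (adjusted p = 0.0091), while MTF1 differed by 0.27 (adjusted p = 0.154). Their part in the metallothionein values was not tested.

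RECK is the check of the labels and is read from its probe set with the highest level. Its value was higher, not lower, on the arrays labelled siRECK, by 5.48 log2 units in Hs343T (44.5-fold, limma adjusted p = 1.12e-10) and by 2.40 in Hs606T (5.29-fold, adjusted p = 1.07e-05). With the RECK construct it differed from EV by 0.03 in MDA-MB-231 (adjusted p = 0.965) and by -0.42 in LM24175 (adjusted p = 0.188). The groups below are therefore named by their labels, and no direction of RECK is drawn from them.

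In Hs343T, MT1M was the only member probe set that passed between the siRNA arms. It read 9.91 and 9.63 on the arrays labelled siSCR and 11.40 and 11.40 on those labelled siRECK, so the siRECK arrays were both higher than both siSCR arrays. The log2 difference was 1.63 (SE 0.15, 95% interval 1.31 to 1.95), a 3.09-fold higher value (interval 2.48 to 3.86, limma adjusted p = 4.31e-06). This was 1 of 11 member probe sets, in a comparison where 24.7% of all probe sets passed, 10.4% as higher and 14.3% as lower. Leaving out arrays and changing the processing left the difference between 1.49 and 1.77 in all 26 alternatives. Many of these leave out an array of another group, which cannot change this difference.

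The other members of Hs343T did not pass. MT2A read 14.61 and 14.65 with siSCR and 14.78 and 14.78 on the arrays labelled siRECK, a difference of 0.15 (SE 0.08, adjusted p = 0.201) with the latter at the top of the array. The 9 _x_at probe sets differed by -0.02 to 0.22, and 8 of the 9 were positive. On the same arrays 26 of 26 measured interferon-stimulated genes were higher with siRECK, with a median difference of 6.64, among them MX1 with 8.16 and IFIT1 with 7.94, both antiviral effectors. Of the STAT3 and IL-6 list, 6 of 12 measured were higher and 0 lower, with FOS at 1.72, JUNB at 1.53, IL6 at 1.12 and STAT3 at 0.97. Of the glucocorticoid list, 2 of 10 were higher, CEBPD with 1.14 and DUSP1 with 0.56, and 1 was lower, HSD11B1 with -0.56. Of the cell type markers, 3 of 15 fibroblast markers were lower, with FAP at -0.99 and PDGFRA at -0.94, and 4 of 11 epithelial markers were lower, with KRT18 at -1.08. The counts of the glucocorticoid and fibroblast lists lie near the 24.7% of all probe sets that passed here, 10.4% as higher and 14.3% as lower. The part of these genes in the value of MT1M was not tested.

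Of 14 measured zinc transporters and MTF1 in Hs343T, 2 were higher and 2 lower on the arrays labelled siRECK, a share near the 24.7% of all probe sets that passed. SLC30A1 was higher by 0.45 (SE 0.08, adjusted p = 9.54e-04) and SLC30A4, which loads zinc into vesicles, by 0.58. SLC30A5 and SLC30A9 were lower, by -0.91 and -0.51. MTF1 differed by 0.22 (adjusted p = 0.286). The same holds for 2 of 7 copper handling genes, both lower. SLC31A1, the copper importer of the cell surface, was lower by -0.52, and CCS, which hands copper to superoxide dismutase, by -0.32. Of 12 oxidative and metal stress genes, 5 were lower and 0 higher, with the cystine transporter SLC7A11 at -2.76 and TXNRD1 at -0.59.

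In Hs606T no member probe set passed between the siRNA arms, in a comparison where 0.846% of all probe sets did, 0.576% as higher and 0.270% as lower. The 9 _x_at probe sets all took the same sign, with siRECK minus siSCR differences of -0.44 to -0.22. They can bind each other's transcripts, so these are not 9 separate results. MT1F (217165_x_at) read 13.37 and 13.33 with siSCR and 12.99 and 12.96 on the siRECK arrays, a difference of -0.37 with the smallest adjusted p of the family (0.0689). MT2A read 14.53 on both siSCR arrays and 14.28 on both siRECK arrays (difference -0.25, SE 0.08, adjusted p = 0.212). MT1M read 8.35 and 8.44 against 8.51 and 8.42, a difference of 0.07 (adjusted p = 0.921). With a trended and robust variance 5 of the 11 passed as lower, and the share of all probe sets that passed in that fit is not given here. Interferon-stimulated genes were higher for 19 of 26 in this line too, with a median of 1.32. Of the 14 zinc genes 0 passed, and SLC30A1 differed by 0.13 (adjusted p = 0.612).

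The response to the siRNA labels differed between the lines by a direct test. MT1M had a difference of 1.63 in Hs343T and 0.07 in Hs606T, and the difference between the responses was -1.56 (SE 0.21, limma adjusted p = 2.4e-04). In all, 7 of 11 member probe sets passed in this test and all 7 were lower in Hs606T, where 16.3% of all probe sets passed, 9.08% as higher and 7.22% as lower. MT1F 213629_x_at gave -0.66, MT1G 204745_x_at -0.52, MT1F 217165_x_at -0.50, MT1E 216336_x_at -0.46, MT2A -0.40 and MT1X 208581_x_at -0.34. Without any 1 of the 8 arrays of these lines the count was 2 to 4, and MT1M passed in all 26 alternatives with -1.70 to -1.42.

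With the RECK construct, 5 of the 11 member probe sets were lower in LM24175 than with EV and 0 were higher, where 4.41% of all probe sets passed, 2.35% as higher and 2.06% as lower. The median of the members was -0.37 against 0.00 for all probe sets. MT1E (216336_x_at) read 12.30 and 12.40 with EV and 11.77 and 11.91 with the construct, a difference of -0.51 (SE 0.09, limma adjusted p = 0.0067) or 1.42-fold lower. MT1E (212859_x_at) read 13.22 and 13.28 against 12.53 and 12.83, a difference of -0.57 (SE 0.11, adjusted p = 0.0097). In both cases each construct array lay below each EV array, with construct replicate 1 the lowest.

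The further 3 that passed in LM24175 were MT1X 204326_x_at, MT1F 217165_x_at and MT1G 204745_x_at. MT1X 204326_x_at read 13.09 on both EV arrays and 12.42 and 12.75 with the construct, a difference of -0.50. MT1F 217165_x_at read 13.10 and 13.17 against 12.60 and 12.80, a difference of -0.43. MT1G 204745_x_at read 12.65 and 12.68 against 12.20 and 12.39, a difference of -0.37. For MT2A the values were 14.38 and 14.43 with EV and 14.12 and 14.25 with the construct, and the difference of -0.22 did not pass (adjusted p = 0.152). MT1M differed by -0.50 (adjusted p = 0.0829), all 4 values lying below the array's lower quartile. Fibroblast markers moved in this comparison too, with 3 of 15 higher with the construct and 0 lower. These were COL1A2 with 2.20, COL3A1 with 1.52 and COL6A3 with 1.36, and the mean of the 15 per array was 6.69 to 6.71 with EV and 6.92 to 7.24 with the construct. Their part in the metallothionein values was not tested.

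These calls did not all hold when an array was left out, which leaves 1 array in a group. The share of all probe sets that passed in such fits is not given here. A general loss of calls therefore cannot be told apart from one particular to the members. All 5 differences stayed negative in these fits. The count was 1 without LM24175 EV replicate 1, 0 without EV replicate 2 and 0 without construct replicate 1, while it stayed at 5 without construct replicate 2. Without construct replicate 1 the differences of MT1E were -0.44 (216336_x_at) and -0.42 (212859_x_at), with adjusted p = 0.0584 and 0.0832. Across all probe sets its deviation from the group mean correlated with that of MDA-MB-231 EV replicate 1 (r = 0.449). With 2 arrays a group the same r holds for replicate 2 of both groups, so which pair stands apart cannot be told. Without replicate 1 of both groups 4 of the 11 passed.

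In MDA-MB-231 no member probe set passed between construct and EV, where 0.239% of all probe sets did, 0.194% as higher and 0.0450% as lower. Of the 11, 9 were positive, with a median difference of 0.13, and 1 passed at an unadjusted p under 0.05. This was MT1X 204326_x_at, which read 12.56 and 12.67 with EV and 12.91 and 12.97 with the construct, a difference of 0.33 (SE 0.11, adjusted p = 0.299). MT2A read 14.15 and 14.20 against 14.27 and 14.31, a difference of 0.12. MT1M differed by -0.18 (adjusted p = 0.68), with overlapping arrays.

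The 2 invasive lines differed in their response to the construct by the test of the difference itself. Of the 11 member probe sets 5 passed and all 5 were lower in LM24175, where 2.62% of all probe sets passed, 1.23% as higher and 1.38% as lower. MT1X 204326_x_at gave -0.83 (SE 0.16, limma adjusted p = 0.0189), MT1E 212859_x_at -0.75, MT1E 216336_x_at -0.65, MT1F 217165_x_at -0.57 and MT1G 204745_x_at -0.55. The count fell to 3 without MDA-MB-231 EV replicate 1 and to 0 without MDA-MB-231 construct replicate 1, LM24175 EV replicate 1, LM24175 EV replicate 2 or LM24175 construct replicate 1.

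Of the 14 zinc genes 0 passed in either invasive line, where 0.239% of all probe sets passed in MDA-MB-231 and 4.41% in LM24175, so a count of 0 says nothing particular of them. SLC30A1 differed by 0.33 in MDA-MB-231 (adjusted p = 0.132) and by -0.28 in LM24175 (adjusted p = 0.0674), and its 2 responses differed by -0.61 (SE 0.11, adjusted p = 0.0156), the 1 zinc gene of 14 that passed that test. MTF1 differed by -0.24 in MDA-MB-231 and 0.24 in LM24175 and passed in neither. Of the other lists in LM24175, HMOX1, the heme-degrading enzyme of the stress response, was higher by 0.64 (adjusted p = 0.0256), SLC31A1 by 0.47, SGK1 by 0.42 and HSD11B1 by 0.50. Of the 26 interferon-stimulated genes, 2 were higher, BST2 with 0.88 and RSAD2 with 0.57, and 1 was lower, OAS1 with -0.96. No gene of the STAT3 and IL-6 list passed in either line.

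**Figure D3:**
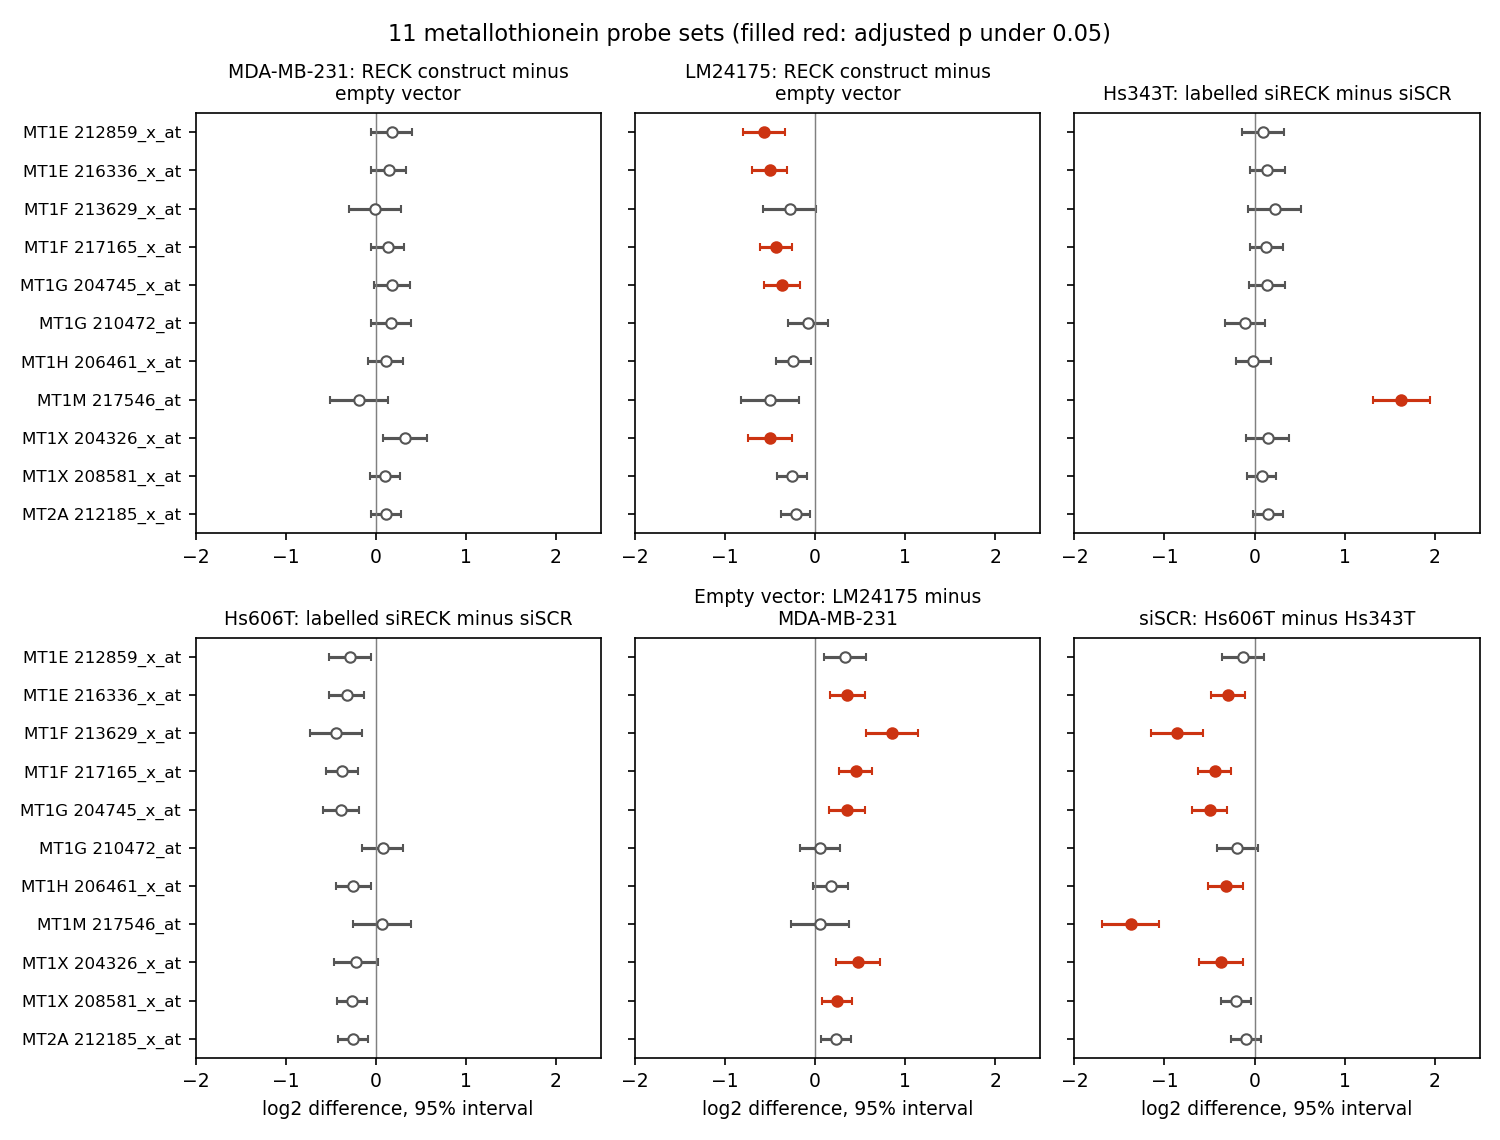
Log2 differences of the 11 metallothionein probe sets in 6 comparisons. The horizontal axis is the difference with its 95% interval, and filled red points passed an adjusted p under 0.05. MT1M stands at 1.63 in Hs343T, the 5 probe sets that passed in LM24175 lie between -0.57 and -0.37, and no point passed in MDA-MB-231 or Hs606T.

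The levels of the _x_at probe sets over the 8 groups are given as a description. The mean of the 9 deviations from each probe set's own mean over the 16 arrays was 0.57 ± 0.01 (SD, n = 2) in Hs343T labelled siRECK and 0.45 ± 0.04 in Hs343T siSCR. It was 0.09 ± 0.02 in Hs606T siSCR and 0.03 ± 0.04 in LM24175 EV. Then came MDA-MB-231 with the construct at -0.21 ± 0.04, Hs606T labelled siRECK at -0.22 ± 0.03, LM24175 with the construct at -0.35 ± 0.12 and MDA-MB-231 EV at -0.36 ± 0.04. The order of the groups was not the same in every probe set, as MT1F 213629_x_at was lowest in the MDA-MB-231 groups and MT1E 212859_x_at lowest in LM24175 with the construct. The arrays of MDA-MB-231 with the construct overlapped those of Hs606T siRECK, and those of LM24175 with the construct overlapped MDA-MB-231 EV. Between 8 of the 9 probe sets, the correlation over the 8 group means ran from 0.785 to 0.995 (28 pairs). Probe set 204326_x_at correlated with those 8 by 0.08 to 0.39, and it was highest in LM24175 EV, where the others were highest in Hs343T. These probe sets can bind each other's transcripts, so their correlations are not independent measurements.

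**Figure D4:**
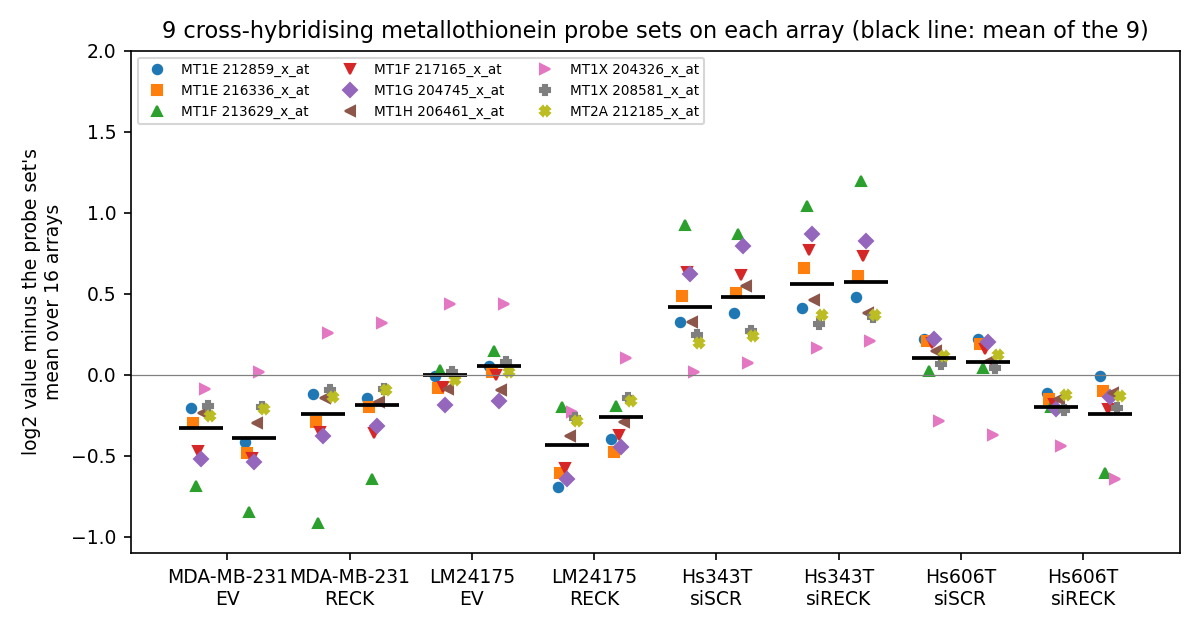
The 9 cross-hybridising metallothionein probe sets on each array. The vertical axis is the log2 value minus that probe set's mean over 16 arrays, each symbol is a probe set, and the black line is the mean of the 9 on that array. Hs343T labelled siRECK stands highest at a mean of 0.57 and MDA-MB-231 EV lowest at -0.36, and the MT1X probe set 204326_x_at lies above the mean of the 9 on every array of MDA-MB-231 and LM24175 and below it on every array of Hs343T and Hs606T.

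The 3 other metallothionein probe sets of the table were MT3, MT4 and MT1HL1. MT3, the isoform known from brain, read 5.80 to 6.83 and MT4, known from stratified epithelium, 5.31 to 6.39, and neither passed in any construct or siRNA comparison within a line. MT1HL1 (211456_x_at), a copy on another chromosome, read 13.46 to 14.37, and its group means correlated at 0.978 with the mean deviation over all 11 member probe sets. Of the genes on either side of the cluster, 8 of 13 were measured. None of the 8 passed in MDA-MB-231, LM24175 or Hs606T, where 0.239%, 4.41% and 0.846% of all probe sets did. In Hs343T, where 24.7% of all probe sets passed, NUP93 was higher by 0.31 and ARL2BP lower by -0.43. These counts within lines say nothing particular of the neighbours. Between the invasive and poorly invasive controls 2 of the 8 were higher and 5 lower, where 68.4% of all probe sets passed.

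Outside the family, the 5 genes whose pattern over the 8 group means was most like that mean deviation were NFATC4 (Pearson r = 0.996), FST (0.993), GSTM1 (0.987), ADAM19 (0.985) and PLOD2 (0.985). They were ranked among 8157 probe sets whose group means span at least 1 log2 unit, and MT1M weighs most in the index because its span is the widest. FST, which encodes follistatin, read 10.90 in Hs343T labelled siRECK, 10.16 in Hs343T siSCR, 7.81 in LM24175 EV and 6.87 in LM24175 with the construct. PLOD2, a collagen lysyl hydroxylase, read 13.61, 13.30, 11.77 and 11.03 in the same groups. With 8 points that fall mainly into invasive and poorly invasive lines, these correlations describe the arrays and are given without a test.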

How the data were processed

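The 16 arrays (Affymetrix U133 2.0, 2 for each of 8 groups) were read from 1 deposited table of log2 values, which the authors made from scanner files in Partek per the submitters' processing notes. How probes were summarised and scaled is not given in the sources used here, and the values themselves gave the log base. None was rescaled or filtered. Of 22277 probe sets, 62 controls were left out.

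All 16 arrays entered 1 fit of 8 group means over 22215 probe sets in R 4.3.3, using lmFit, contrasts and eBayes of limma 3.58.1. The residual degrees of freedom were 8, the prior ones 3.98 and the median residual SD 0.134. For each of 9 comparisons the Benjamini-Hochberg adjustment ran over all probe sets, tests were 2-sided, and the threshold was an adjusted p of 0.05. Moderated intervals cover 95%. The procedure was tested on simulated data. Figures came from matplotlib 3.10.9, tables from pandas 2.3.3 and numpy 2.4.6 under Python 3.11.15.

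Members and lists were chosen with earlier results of these data known. All member and other metallothionein probe sets, RECK, MTF1, SLC30A1, HMOX1, FKBP5 and STAT3 were picked whatever their values. Added were up to 4 passing genes of each list with the largest differences and the 5 genes most like the family. Not every gene picked is given for every comparison. List genes were read from their brightest probe set. FKBP5 passed in no comparison within a line. The alternatives were a 1.5-fold minimum, quantile normalization, centring, leaving out probe sets in the lowest 0.25 of level, a trended and robust variance, only the arrays compared, the replicate number as a block, 1 value a gene in 2 ways, and leaving out arrays.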

Additional observations from a re-analysis of the deposited data

Results flagged for a closer look

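The response to the RECK construct differed between LM24175 and MDA-MB-231 for 5 of 11 member probe sets, where 2.62% of all probe sets passed. This was by the test of the difference itself (limma, adjusted over all probe sets). MT1X 204326_x_at gave -0.83 (adjusted p = 0.0189), MT1E 212859_x_at -0.75 (0.0254), MT1E 216336_x_at -0.65 (0.0200), MT1F 217165_x_at -0.57 (0.0286) and MT1G 204745_x_at -0.55 (0.0441), each lower in LM24175. All 5 differences within MDA-MB-231 were positive and all 5 within LM24175 negative. All 5 are _x_at probe sets, which can bind each other's transcripts, so these are not 5 separate results. With only the arrays compared, or with the replicate block, the count was 0.

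Between Hs606T and Hs343T, the difference on arrays labelled siRECK was unequal for 7 of 11 member probe sets by the same test. In that test 16.3% of all probe sets passed, and all of the 7 but MT1M are _x_at probe sets. MT1M gave -1.56 (adjusted p = 2.4e-04), MT1F 213629_x_at -0.66 (0.0308), MT1G 204745_x_at -0.52 (0.0142) and MT1F 217165_x_at -0.50 (0.0114). MT1E 216336_x_at gave -0.46 (0.0244), MT2A -0.40 (0.0243) and MT1X 208581_x_at -0.34 (0.0486), each lower in Hs606T. The cause of these differences was not tested.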

How the results depend on the processing

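MT1M kept its direction and its call in Hs343T, between Hs606T and Hs343T with siSCR, between invasive and poorly invasive controls and in the siRNA response difference under all 26 alternatives. Many of the 26 leave out an array outside the comparison, which cannot change its difference. MT1M has a single probe set, so both gene-level ways use its same values. Counts of member probe sets that passed moved elsewhere, and the cause was not tested. The shares of all probe sets that passed in these alternatives, or with an array left out, are not given here. A changed count, here or above, is therefore not read as particular to the members. Leaving out an array of a comparison also leaves 1 array in its group. For the construct in LM24175 (5), the count was 0 with a 1.5-fold minimum, 8 with a trended and robust variance, 0 with only the arrays compared and 2 with the replicate block. For the construct response difference (5) these were 3, 8, 0 and 0, and 2 without replicate 1 of both MDA-MB-231 EV and LM24175 construct. LM24175 against MDA-MB-231 with EV (6) gave 1 with the 1.5-fold minimum, 1 with only the arrays compared and 3 with the block, and, of 7 genes read from their brightest probe set, 5 rather than 3 when 1 probe set a gene entered the fit. The siRNA response difference (7) gave 2 with the 1.5-fold minimum and 2 with the block. With the 1.5-fold minimum, Hs606T against Hs343T (7) gave 2 and the invasive comparison (11) gave 4. In Hs343T (1) the trended and robust variance gave 2. In Hs606T (0) it gave 5, leaving out dim probe sets gave 1, leaving out those same arrays gave 3, and 1 of 7 genes passed rather than 0 when 1 probe set a gene entered the fit. Replicate numbers are not said to pair arrays, and the correlation of same-numbered deviations within a line was -0.05 to 0.01, so the block describes a shared number only.

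Leaving out each array in turn gave 0 to 6 for the construct in LM24175, 0 to 5 for the construct response difference, 0 to 0 in MDA-MB-231, 2 to 8 for LM24175 against MDA-MB-231, 4 to 8 for Hs606T against Hs343T, 2 to 7 for the siRNA response difference, 0 to 1 in Hs606T, 1 to 1 in Hs343T and 11 to 11 for the invasive comparison. Signs turned for values that had not passed. MT1F 213629_x_at in MDA-MB-231 gave 6.25e-06 with quantile normalization, 0.072 without those same arrays and -0.15 to 0.13 with an array left out. MT1M there gave -0.41 to 0.050. MT1H in Hs343T gave 0.017 with quantile normalization, 0.029 centred and -0.13 to 0.097 with an array left out. MT1G 210472_at gave -0.16 to 0.0077 in LM24175, -0.033 to 0.19 in Hs606T and -0.026 to 0.14 between the EV groups. MT1M between the EV groups gave -0.18 to 0.29, and -0.18 without those same arrays. Among passing values, MT1X 208581_x_at between invasive and poorly invasive controls became 0.057 (adjusted p = 0.391) as a mean of both MT1X probe sets. Of 2493 single values under alternatives, 2219 kept direction and call, 206 lost and 52 gained a call and 16 changed sign. Many of these single values come from fits without an array outside the comparison, where the difference cannot move. Whether a rise of MT2A is compressed near the top of the scale was not tested. Below the lower quartile differences of MT1M and MT1G 210472_at have little signal behind them.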
